A study of Mus musculus with 45 samples.

Results

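Histones are the proteins that DNA is wound on in chromatin. The genes described here are mostly the clustered copies that encode the linker histone H1 and the core histones H2A, H2B, H3 and H4. They were taken as every symbol of the deposited expression table that begins with Hist1h, Hist2h, Hist3h or Hist4h and does not end in -ps. That gave 69 of 30317 symbols, namely 6 H1, 20 H2A, 18 H2B, 12 H3 and 13 H4 genes. The rule goes by symbol, so it also took in 2 annotated pseudogenes, Hist1h2aj and Hist1h2al, and Hist4h4, which stands alone on chromosome 6.

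Follicular B cells had been taken from the spleens of B6.Blimp1GFP/+ mice, in which GFP marks cells that turn on Blimp1, the regulator of plasma cell formation. All groups share this genotype and growth on a stromal layer. The layer was OP9-DL1, which carries the Notch ligand Delta-like 1, or plain OP9, and the B cells grown on them are called DL1 and OP9 cells below. Cells received salmonella lipopolysaccharide (LPS, 10 ug/mL, a ligand of Toll-like receptors) for 20, 44 or 68 h, anti-IgM F(ab')2 (10 ug/mL, which binds the B cell receptor) for the same times, or no stimulus for 68 h. A further group holds Blimp1+ cells, sorted out of LPS-treated DL1 cultures, for which the labels give no time. With 3 libraries for each of 15 groups there are 45 libraries, made from polyA RNA of sorted viable cells. Unstimulated cells were measured at 68 h only, so each stimulus can be set against them at that time alone. No label says that replicates came from separate animals or cultures, so p-values measure the spread between these samples.

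Estimated reads per library ran from 3.07 M to 29.1 M. Values are TPM, a share of all transcripts corrected for their length, divided by a size factor per library and are called scaled TPM below. The B cell gene Cd79a was present in all libraries at 164 to 2371 scaled TPM. In 10 libraries Actb, which encodes beta-actin, stood at 12355 to 85337 TPM as deposited, against 217 to 2974 TPM in the other 35. These 10 are all 3 libraries of DL1 cells with LPS at 20 h, all 3 of OP9 cells with anti-IgM at 20 h, and replicate 3 of OP9 cells with LPS, DL1 cells with LPS, OP9 cells with anti-IgM and unstimulated OP9 cells at 68 h. They also listed more histone genes at 0, with 26 to 43 of 69 against 8 to 38 in the other 35. At 20 h this split coincides with the stroma within each stimulus, and they cannot be told apart there.

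In unstimulated OP9 cells the 20 stromal marker genes took 0.526% to 1.69% of all TPM, against 0.00377% to 0.0519% in the 42 other libraries. All 20 were above 0 in at least 1 library of unstimulated OP9 cells, and likewise in DL1 cells with anti-IgM at 20 h. In unstimulated DL1 cells only Lum and Thy1 were at 0 in all 3 libraries. The summed B cell markers of unstimulated OP9 cells were 975, 4850 and 10409 scaled TPM, against 12856 to 17544 in unstimulated DL1 cells. The part of these marker levels in the results on unstimulated OP9 cells was not tested.

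Most clustered histone genes are copied in S phase, when new DNA has to be packed, and their messages differ from others in ending at a stem-loop instead of a polyA tail. The stem-loop is bound by Slbp, the stem-loop binding protein, and Npat is a coactivator of histone gene transcription. Some copies can also give polyadenylated messages, and such forms are known from cells that have left the cell cycle. Libraries of polyA RNA are made to read what carries a tail, so the values below are not levels of all histone messages. Whether messages without a tail were carried over was not tested. As these are bulk samples, fewer cells that make a message and less of it per cell cannot be told apart.

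The stem-loop was looked for in the mouse GENCODE transcripts of all 69 genes (GRCm38, release 21) because it is the feature that sets these messages apart. It was found in 46 of 69 genes, in 8 versions of its 16-base core. One core was shared by 26 genes of the H1, H2A, H2B and H3 families, and another by 7 genes that are all H4. The lines below give it in capitals with its flanks for genes that the results turn on, in the 5′ to 3′ sense of the message.
Hist1h2ap (chr13:21833026-21833049, minus strand): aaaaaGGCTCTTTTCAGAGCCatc
Hist1h2ao (chr13:21810893-21810918, plus strand): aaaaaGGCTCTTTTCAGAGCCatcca
Hist1h2ae (chr13:23570663-23570688, minus strand): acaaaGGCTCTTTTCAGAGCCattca
Hist1h1c (chr13:23739507-23739532, plus strand): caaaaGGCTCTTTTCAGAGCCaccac
Hist2h2aa1 (chr3:96246027-96246052, plus strand): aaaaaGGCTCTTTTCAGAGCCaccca
Hist1h2bk (chr13:22036295-22036320, plus strand): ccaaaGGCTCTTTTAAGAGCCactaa
Hist1h4d (chr13:23581945-23581970, plus strand): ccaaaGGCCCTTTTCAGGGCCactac
Hist1h4i (chr13:22040961-22040986, minus strand): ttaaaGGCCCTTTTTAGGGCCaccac

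The annotated end of the message differs more than the stem-loop does. Hist1h2ap ends 3 bases past it and Hist1h2ao 31 bases past it, whereas Hist1h1c runs 840 bases and Hist1h1e 1153 bases beyond. By annotation, 21 of the 69 genes end within 100 bases of the stem-loop and lack the polyadenylation letters AATAAA or ATTAAA in their last 40 bases. Another 28 run further or carry those letters, and 20 show neither feature. Among the 28 are Hist1h4h and Hist1h2bp, which carry the letters and have an annotated end 46 and 38 bases past the stem-loop. Those letters were found at the end of 17 of the 69 genes, and at the end of 48.7% of 58797 protein-coding transcripts. No stem-loop was found in the annotated transcripts of Hist1h1b, Hist1h2ai and Hist1h2bc, which says only that these letters are not in those transcripts.

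Many members are near copies of each other, which limits what can be said of single genes. Of the 69 genes, 21 share at least 80% of their 31-base stretches with other members and 16 share less than 20%. Hist1h2ap shares 93.4% with Hist1h2ao, Hist1h2ai 84.8% with Hist1h2ah and Hist1h4m 91.7% with Hist1h4n, so how reads were split among these is uncertain. All stretches of Hist2h2aa2 lie in Hist2h2aa1 as well, and the levels of the pair are given as a sum below. The tests were run on each gene and not on that sum, so a call of either alone depends on how reads were split. Hist1h1b (3.09% shared), Hist3h2a (3.31%), Hist1h1c (11.4%) and Hist1h4d (14.7%) are mostly unique, and Hist1h2ae shares 47.9%.

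Promoters are shown for 3 members that part company in the results, Hist1h1b and Hist1h2ae, which were high in DL1 cells with anti-IgM at 68 h, and Hist1h1c, which was high in unstimulated OP9 and Blimp1+ cells. They are 300 bases from RefSeq (GRCm38.p6), reaching from 250 bases before the start to 50 after. Capitals mark, on either strand, a TATA element spelled TATAAA, the box spelled CCAAT, the octamer ATTTGCAT and the H1 box AAACACA. The window of Hist1h2ae overlaps that of its neighbour Hist1h2bg on the other strand. Its TATA and octamer letters lie in both windows, so they cannot be assigned to Hist1h2ae alone.
Hist1h1b (chr13:21780576-21780875, minus strand): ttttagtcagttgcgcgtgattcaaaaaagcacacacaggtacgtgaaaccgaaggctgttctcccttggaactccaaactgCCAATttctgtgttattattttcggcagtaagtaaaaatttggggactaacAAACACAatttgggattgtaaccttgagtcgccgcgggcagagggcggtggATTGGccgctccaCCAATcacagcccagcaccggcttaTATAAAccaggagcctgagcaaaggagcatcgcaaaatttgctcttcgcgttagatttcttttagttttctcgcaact
Hist1h1c (chr13:23738557-23738856, plus strand): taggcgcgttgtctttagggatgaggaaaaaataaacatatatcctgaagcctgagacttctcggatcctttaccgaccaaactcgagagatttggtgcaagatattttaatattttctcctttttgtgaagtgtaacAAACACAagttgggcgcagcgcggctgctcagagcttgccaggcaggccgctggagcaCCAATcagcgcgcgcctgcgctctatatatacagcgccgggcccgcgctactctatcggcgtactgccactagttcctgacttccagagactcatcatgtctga
Hist1h2ae (chr13:23571171-23571470, minus strand): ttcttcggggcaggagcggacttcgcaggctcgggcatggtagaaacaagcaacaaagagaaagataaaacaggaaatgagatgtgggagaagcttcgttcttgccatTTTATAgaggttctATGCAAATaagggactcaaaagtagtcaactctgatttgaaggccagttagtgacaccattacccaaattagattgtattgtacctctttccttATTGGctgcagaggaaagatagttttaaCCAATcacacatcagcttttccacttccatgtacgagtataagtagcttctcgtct

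RefSeq promoters were matched for 61 of the 69 genes. Hist1h3f, Hist2h2be, Hist2h4, Hist1h2aj, Hist1h3a, Hist1h2ap, Hist1h2al and Hist1h2bc were not matched. The TATA letters were in 57.4% of the 61 promoters, against 13.6% of all 32851 promoters in the table. The CCAAT letters were in 85.2%, against 37.4% of all, and the octamer in 21.3%, against 1.74% of all. The families differed: CCAAT was in all promoters of H1, H2A, H2B and H3 genes and in 3 of 12 of H4 genes, and the octamer was in 7 of 17 of H2A and 6 of 16 of H2B genes and in none of the others. The H1 box was in 5 of 6 promoters of H1 genes and in 14.8% of the 61, against 7.18% of all. Windows of neighbouring H2A and H2B genes can overlap, as for Hist1h2ae and Hist1h2bg or Hist1h2ah and Hist1h2bk. The same site is then counted for both genes, so these counts are not of separate sites. A match is a description of the letters and not of binding.

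Across the 45 libraries the summed level of the 69 genes ran from 446 to 8078 scaled TPM. Most of it came from a single H2A gene. Hist1h2ap averaged 1935 scaled TPM and made up 56.3% to 85.9% of the sum in 41 libraries. In the 3 libraries of unstimulated OP9 cells it made up 19.5%, 44.7% and 31.9%, and in replicate 3 of OP9 cells with LPS at 20 h 0.979%, where it stood at 6.52 scaled TPM against 1591 and 345 in replicates 1 and 2. The time courses and the ratios below are therefore given without it as well.

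After Hist1h2ap, the most abundant H2A genes were Hist1h2ao at a mean of 131 and Hist1h2ae at 63.1 scaled TPM. The most abundant H2B genes were Hist1h2bj (28.5), Hist1h2bc (22.8) and Hist1h2bm (10.2), and the most abundant H1 genes Hist1h1b (26.8), Hist1h1e (18.6) and Hist1h1c (6.19). H4 was led by Hist1h4c (20.2), Hist1h4d (12.2) and Hist1h4m (11.8). H3 had the lowest median sum of the 5 families, at 19.3 scaled TPM, with Hist2h3b at a mean of 5.73, Hist1h3e at 2.64 and Hist1h3d at 2.06. Replicate 3 of OP9 cells with LPS at 20 h, where Hist1h2ap was low, had the highest H3 and H4 sums of all libraries. Its H3 sum was 80.7, against 20.3 and 9.28 in replicates 1 and 2, and its H4 sum 177, against 60.8 and 26.8. Its H2B sum was 205, against 83.0 and 18.2. Of the 69 genes, 22 had a mean of at least 5, 33 a mean from 1 up to 5, and 14 a mean under 1. Among the lowest, the testis forms Hist1h1t and Hist1h2ba, did not pass the filter of 1 TPM in 3 libraries, and the other 67 were tested.

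**Figure D1:**
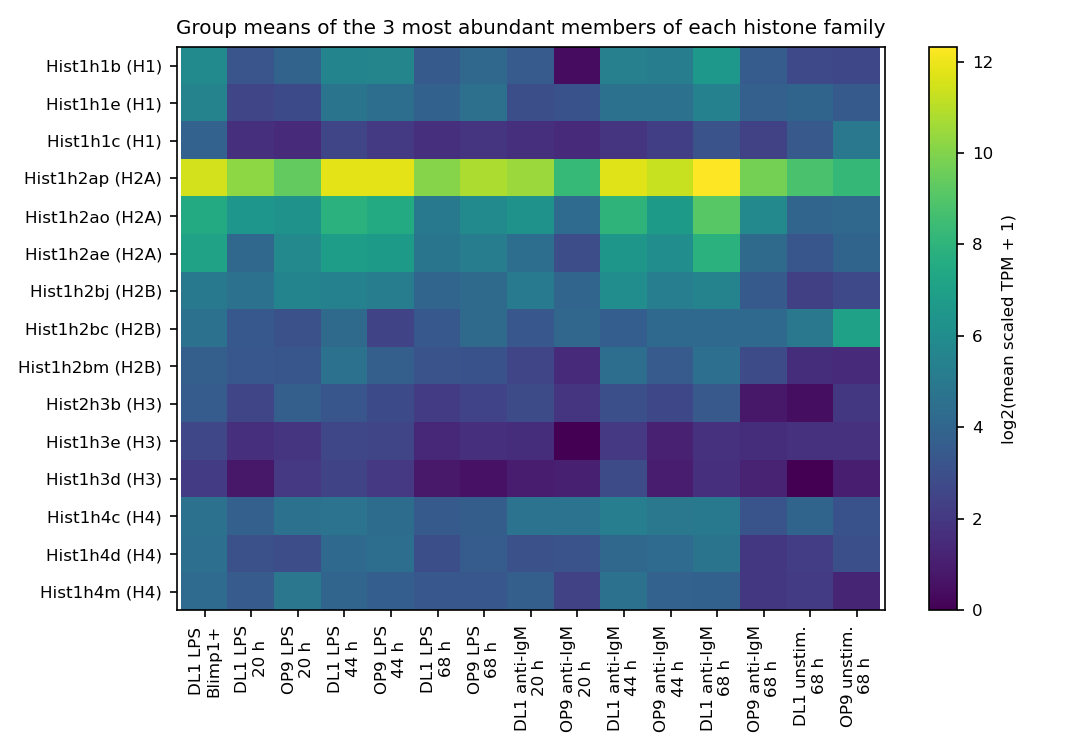
Heat map of log2(mean scaled TPM + 1) for the 3 most abundant members of each histone family (rows) in the 15 groups (columns, 3 libraries each). The row of Hist1h2ap is the brightest, most of all in DL1 cells with anti-IgM at 68 h, while Hist1h1c and Hist1h2bc are brightest in unstimulated OP9 cells.

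In 3 of the 4 stimulated courses the summed level was highest at 44 h. At 20, 44 and 68 h it averaged 1500, 4497 and 1345 scaled TPM in DL1 cells with LPS, 1133, 4298 and 2145 in OP9 cells with LPS, and 513, 3098 and 1126 in OP9 cells with anti-IgM. DL1 cells with anti-IgM went on upward, at 1794, 4330 and 6536 scaled TPM. Their 3 libraries at 68 h, at 5082, 8078 and 6447, were each above all 3 at 44 h, at 4497, 4045 and 4448. Without Hist1h2ap the sums at 20, 44 and 68 h were 324, 868 and 269 scaled TPM in DL1 cells with LPS, 486, 731 and 349 in OP9 cells with LPS, 206, 600 and 273 in OP9 cells with anti-IgM, and 403, 950 and 1429 in DL1 cells with anti-IgM. In that last course only the H2A and H1 sums rose from 44 to 68 h without overlap. The H2B sum fell, from 154, 164 and 162 scaled TPM at 44 h to 110, 149 and 137 at 68 h. The H3 and H4 sums overlapped between these times. Over the 67 tested genes the median log2 difference was 0.17, with 38 above 0.

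Libraries of high Actb sit at 20 and 68 h only and had low histone sums, 446 to 1749 scaled TPM with a median of 797, against 490 to 8078 with a median of 2632 in the other 35. Their part in the time courses was not tested. At 68 h the libraries without high Actb had 1695 and 1644 in DL1 cells with LPS, 2395 and 2632 in OP9 cells with LPS, and 1460 and 1021 in OP9 cells with anti-IgM. Each of these was below all 3 libraries of its course at 44 h. At 20 h 2 courses have no library of high Actb, DL1 cells with anti-IgM and OP9 cells with LPS, and in both all libraries at 20 h were below all at 44 h. Without Hist1h2ap that still held in DL1 cells with anti-IgM but not in OP9 cells with LPS. There the sums without it were 652, 145 and 660 scaled TPM at 20 h and 595, 935 and 663 at 44 h.

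**Figure D2:**
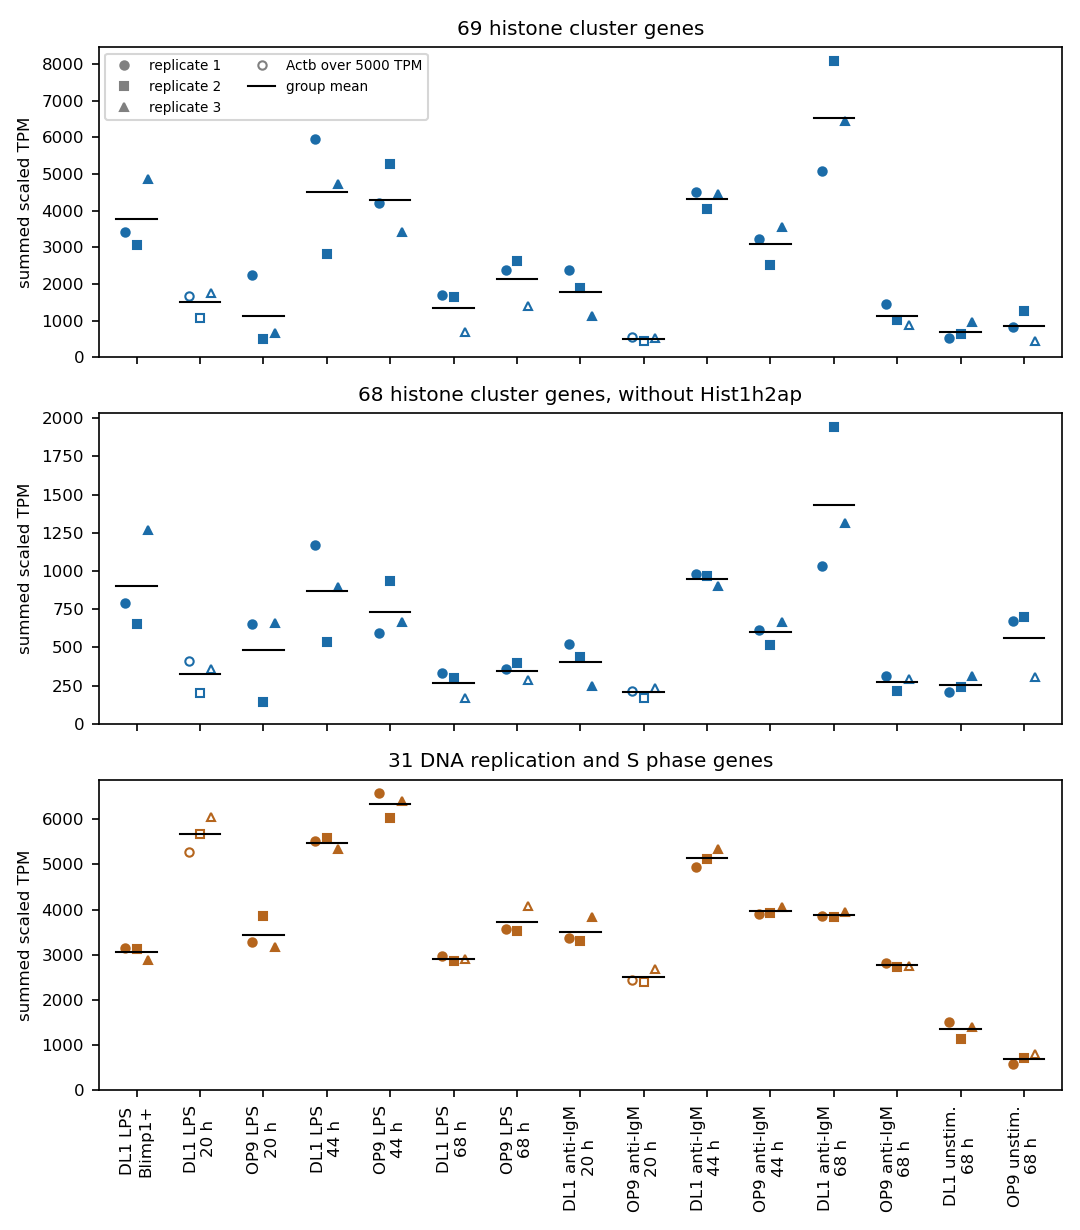
Summed scaled TPM per library of the 69 histone genes (top), of 68 without Hist1h2ap (middle) and of 31 DNA replication and S phase genes (bottom), by group, with replicates as separate symbols and group means as bars. Open symbols are libraries with Actb over 5000 TPM. The 3 libraries of DL1 cells with anti-IgM at 68 h hold 5082 to 8078 in the top panel while in the bottom panel that group averages 3881 and OP9 cells with LPS at 68 h average 3727.

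At 68 h anti-IgM raised histone messages in DL1 cells well above those of unstimulated DL1 cells. Hist1h2ao had 226, 940 and 515 scaled TPM with anti-IgM, against 16.8, 10.7 and 17.5 in unstimulated cells. Hist1h2ae had 244, 244 and 207, against 11.9, 6.65 and 8.18. The linker histone gene Hist1h1b had 81.8, 113 and 88.6, against 3.27, 7.10 and 6.07. In none of these 3 genes did the groups overlap.

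Each gene was tested with limma in a single model of all 45 libraries, on log2(scaled TPM + 1), with p-values adjusted by Benjamini-Hochberg across 15614 genes, and called at an adjusted p below 0.05. Differences are on that log2 scale with their standard error (SE), n = 3 libraries a group. Shares of all tested genes called come from this model. None is given for the other settings named below, so counts under those settings cannot be set against calls over all genes. Anti-IgM against no stimulus in DL1 cells at 68 h called 15 of 67 histone genes, all higher (22.4%, where 9.52% of all tested genes were called). The median difference was 1.13 over the 67 genes and −0.07 over all genes. By log2 size the leading genes were Hist1h2ao at 4.94 ± 0.93 (adjusted p = 0.000366), Hist1h2ae at 4.58 ± 0.81 (adjusted p = 0.000168), Hist1h2ai at 4.19 ± 1.18 (adjusted p = 0.0182), Hist1h1b at 3.92 ± 0.92 (adjusted p = 0.0037) and Hist1h2ag at 3.86 ± 0.71 (adjusted p = 0.000259). The called genes came from all families, with 3 of 5 tested H1 genes, 6 of 20 H2A, 3 of 17 H2B, 1 of 12 H3 and 2 of 13 H4. The count was 9 to 13 with any single library left out and without the libraries of high Actb 22 were higher and 1 lower. Of the 5 genes, Hist1h2ai lost its call without replicate 1 or 3 of unstimulated cells or replicate 2 with anti-IgM (adjusted p = 0.0882 to 0.102). In the authors' log2 table Hist1h1b had an adjusted p of 0.0666.

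With LPS at 68 h no histone gene passed the test as higher in DL1 cells. Hist1h2ao had 34.6, 25.6 and 30.2 scaled TPM with LPS, against 16.8, 10.7 and 17.5 in unstimulated cells, with no overlap (0.98 ± 0.93, adjusted p = 0.627 by limma). Hist1h1b had 20.5, 9.78 and 0.589, against 3.27, 7.10 and 6.07. The sums were 1695, 1644 and 696 with LPS, against 520, 629 and 953, and overlapped through replicate 3 with LPS, a library of high Actb. Against unstimulated DL1 cells 1 of 67 histone genes was called, Hist1h1c, and it was lower (1.49%, where 8.10% of all tested genes were called). Without replicate 3 with LPS 1 was higher and 2 lower, and without all libraries of high Actb 2 were higher and 2 lower. Without replicate 2 with LPS 2 were lower, and with TPM as deposited 3. Cycle genes did rise there: 18 of 31 replication and S phase genes and 18 of 20 mitosis genes were called higher with LPS. With anti-IgM the counts were 23 of 31 and 20 of 20 higher. Both stimuli were set against the same unstimulated libraries.

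LPS and anti-IgM could be compared directly in DL1 cells. At 68 h 7 of 67 histone genes were lower with LPS than with anti-IgM and none higher (10.4%, where 4.39% of all tested genes were called), with a median of −1.02 against 0.08 over all genes. They were Hist1h2ao (−3.95 ± 0.93, adjusted p = 0.00796 by limma), Hist1h1b (−3.72 ± 0.92, adjusted p = 0.0117), Hist1h2ae (−3.38 ± 0.81, adjusted p = 0.00954), the pseudogene member Hist1h2al, Hist3h2a (−1.98 ± 0.54, adjusted p = 0.0258), Hist1h1e (−1.64 ± 0.48, adjusted p = 0.0420) and Hist1h1c (−1.50 ± 0.37, adjusted p = 0.0104). Hist3h2a had 7.60, 8.66 and 2.20 scaled TPM with LPS, against 15.5, 39.2 and 23.7 with anti-IgM. This comparison leaned on single libraries. Without replicate 3 with LPS, a library of high Actb, 1 gene was called, and without replicate 2 or 3 with anti-IgM 2 and 3 genes were called. At 44 h none of the 67 genes was called between LPS and anti-IgM in DL1 cells (8 at an unadjusted p below 0.05; 2.91% of all tested genes were called). A fit of only these 2 groups called 4 higher and 6 lower with LPS, and the 2.91% does not belong to that fit. The sums there averaged 4497 ± 1586 and 4330 ± 248 scaled TPM (SD, n = 3).

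Under anti-IgM at 68 h histone messages were higher in DL1 than in OP9 cells. The summed level was 6536 ± 1500 scaled TPM in DL1 cells and 1126 ± 296 in OP9 cells (SD, n = 3), a ratio of 5.80, and 5.23 without Hist1h2ap. All 5 families were higher in DL1 cells with no overlap, at 2.12-fold for H2B, 2.87-fold for H3, 3.24-fold for H4, 4.75-fold for H1 and 6.19-fold for H2A. The summed S phase genes differed 1.40-fold. Hist1h2ae had 244, 244 and 207 scaled TPM in DL1 cells, against 21.8, 18.3 and 14.0 in OP9 cells. Hist1h4d, an H4 gene with little shared sequence, had 23.5, 34.3 and 19.7, against 4.96, 4.18 and 0.

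Of 67 genes, 4 were called higher and none lower in DL1 than in OP9 cells with anti-IgM at 68 h (5.97%, where 1.73% of all tested genes were called). These were Hist1h2ae (3.63 ± 0.81, adjusted p = 0.0171 by limma), Hist1h2ao (3.58 ± 0.93, adjusted p = 0.0406), Hist1h4d (3.06 ± 0.81, adjusted p = 0.0441) and Hist1h2al, which is listed at 0 in all 3 OP9 libraries. At an unadjusted p below 0.05 there were 24 genes, 56 of 67 had a difference above 0, and the median was 1.08 against −0.12 over all genes. The 4 calls are not firm. None was made when any of the 3 DL1 libraries was left out, none with a pseudocount of 0.1 and none when only these 2 groups were fitted. Without replicate 2 or 3 of OP9 cells 3 and 2 genes were called, without replicate 1 of OP9 cells 6, and without the libraries of high Actb 6.

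With LPS the same contrast of stroma went the other way in its median and called nothing. At 68 h the sum was 1345 ± 563 scaled TPM in DL1 cells and 2145 ± 649 in OP9 cells. The groups overlapped through replicate 3 of OP9 cells; replicate 3 of either stroma is a library of high Actb. By replicate number DL1 cells were lower in each pair, at 1695 against 2395, 1644 against 2632 and 696 against 1408. Same-numbered libraries deviated together here, and with the replicate number as a block 0 genes were called as well. None of 67 genes was called (1 at an unadjusted p below 0.05; 0.064% of all tested genes were called), with a median of −0.19. The difference between these stroma effects, LPS minus anti-IgM, was tested directly in the limma model. At 68 h no histone gene was called for it (0.199% of all tested genes were), although 18 of 67 had an unadjusted p below 0.05 and the median was −1.07, against 0.16 over all genes. At 44 h none was called either (3 at an unadjusted p below 0.05; 0.0833% of all tested genes were called).

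**Figure D3:**
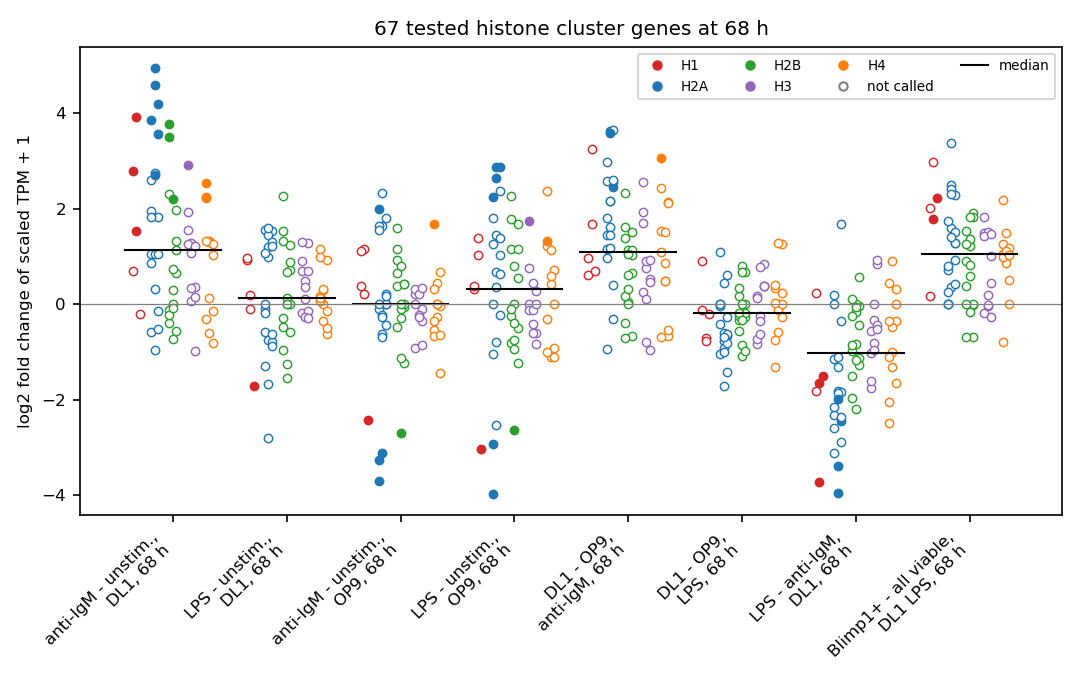
Log2 differences of the 67 tested histone genes in 8 comparisons with groups at 68 h, with a point per gene, coloured by family and filled where called, and the median as a bar. Blimp1+ cells, for which the labels give no time, were set against DL1 cells with LPS at 68 h. Both contrasts of DL1 cells with anti-IgM, against no stimulus and against OP9 cells, have medians above 1 (1.13 and 1.08), and the contrast of LPS with anti-IgM has a median of −1.02.

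At 44 h stroma called no histone gene under either stimulus. With anti-IgM the sums were 4330 ± 248 scaled TPM in DL1 cells and 3098 ± 520 in OP9 cells and did not overlap, yet 0 of 67 genes were called (3 at an unadjusted p below 0.05; 0.897% of all tested genes were called). A fit of only these 2 groups called 9 higher and 1 lower, and the 0.897% does not belong to that fit. With LPS the sums were 4497 ± 1586 and 4298 ± 937, and 0 genes were called (3 at an unadjusted p below 0.05; 0.160% of all tested genes were called).

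At 20 h DL1 cells with anti-IgM held more histone message than OP9 cells, in the comparison where Actb splits the same way. The sums were 2376, 1886 and 1121 scaled TPM in DL1 cells, against 556, 451 and 533 in OP9 cells, whose 3 libraries all have high Actb. Of 67 genes 5 were called higher and 1 lower (8.96%, where 20.5% of all tested genes were called). Higher were Hist1h2ai (3.73 ± 1.18, adjusted p = 0.0266 by limma), Hist1h1b (3.06 ± 0.92, adjusted p = 0.0204), Hist1h2ag (2.91 ± 0.71, adjusted p = 0.00722), Hist1h4i (1.62 ± 0.46, adjusted p = 0.0167) and Hist1h2ak, which is listed at 0 in OP9 cells. The lower gene was Hist4h4, an H4 gene that stands alone on chromosome 6 (−2.03 ± 0.62, adjusted p = 0.0228). Hist4h4 had a median of 3.99 and a highest value of 16.7 scaled TPM in the 10 libraries of high Actb, against 0.69 and 2.33 in the other 35. In all, 1 or 2 genes were called without replicate 1 of DL1 cells, replicate 2 of DL1 cells or replicate 1 of OP9 cells.

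With LPS at 20 h it is the DL1 cells whose libraries all have high Actb. Hist1h2ap had 1262, 878 and 1389 scaled TPM in DL1 cells, against 1591, 345 and 6.52 in OP9 cells, so the groups overlapped. Hist1h2bk, an H2B gene, had 11.8, 7.39 and 21.5, against 5.86, 1.89 and 0. These 2 of 67 genes were called higher (2.99%, where 8.81% of all tested genes were called), at 2.85 ± 0.88 with an adjusted p of 0.0361 and at 2.31 ± 0.69 with an adjusted p of 0.0297 by limma. Without replicate 3 of OP9 cells the difference of Hist1h2ap was 0.64 (adjusted p = 0.53) and that of Hist1h2bk 1.59 (adjusted p = 0.187). The Hist1h2ap call was also lost without any of the 3 DL1 libraries, and the Hist1h2bk call without replicate 1 or 3 of DL1 cells. Neither was called in TPM as deposited.

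Between 20 and 44 h of LPS in OP9 cells the sum averaged 4298 ± 937 scaled TPM at 44 h and 1133 ± 965 at 20 h. Without Hist1h2ap the sums of these groups overlapped. Of 67 genes 3 were called higher at 44 h (4.48%, where 1.74% of all tested genes were called), Hist1h2ap (4.45 ± 0.88, adjusted p = 0.00323 by limma), Hist1h2bk (2.52 ± 0.69, adjusted p = 0.0491) and Hist1h1e (1.77 ± 0.48, adjusted p = 0.0469). Without replicate 3 at 20 h, where Hist1h2ap stood at 6.52, its difference was 2.24 and still called. The calls of Hist1h2bk and Hist1h1e were lost without any single library at 44 h, without replicate 3 (Hist1h2bk) or replicate 1 or 2 (Hist1h1e) at 20 h, and in TPM as deposited. The Hist1h2ap call was lost when only these 2 groups were fitted (adjusted p = 0.571). In a fit without the libraries of high Actb 8 genes were called higher. In DL1 cells with anti-IgM the sum averaged 4330 ± 248 at 44 h and 1794 ± 633 at 20 h without overlap, and 0 of 67 genes were called (12 at an unadjusted p below 0.05; 0.0576% of all tested genes were called).

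The summed level was lower at 68 h than at 44 h in 3 courses. In DL1 cells with LPS the sum at 68 h was 0.30 of that at 44 h, in OP9 cells with anti-IgM 0.36 and in OP9 cells with LPS 0.50, and in each the libraries at 68 h lay below those at 44 h. The summed S phase genes stood at 0.53, 0.70 and 0.59 of their level at 44 h in the same order. Without Hist1h2ap the histone sums stood at 0.31, 0.45 and 0.48, also with no overlap. In DL1 cells with anti-IgM the histone sum at 68 h was 1.51 times that at 44 h, and also above it without Hist1h2ap, at 1429 against 950 scaled TPM, while the S phase genes were at 0.75. The H2B sum of that course was lower at 68 h than at 44 h, with no overlap.

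Few single genes passed the test in these steps. In DL1 cells with LPS 2 of 67 were called lower at 68 than at 44 h (2.99%, where 7.18% of all tested genes were called), Hist1h2bk (−2.19 ± 0.69, adjusted p = 0.0455 by limma) and Hist1h4j, which is listed at 0 at 68 h. The Hist1h2bk call was lost without replicate 3 at 68 h (adjusted p = 0.414) and without 4 of the 5 other libraries. In OP9 cells with LPS Hist1h2ag was lower (−2.60 ± 0.71, adjusted p = 0.0178) and Hist1h2bc higher (1.71 ± 0.52, adjusted p = 0.0390), 2 of 67 genes where 6.91% of all were called. The Hist1h2bc call was lost without any of the 6 libraries and the Hist1h2ag call without 3 of them. With anti-IgM no gene was called in OP9 cells (13 at an unadjusted p below 0.05; 0.0128% of all tested genes were called) or in DL1 cells (3 at an unadjusted p below 0.05; 0.179% were called).

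Set against each other in OP9 cells, LPS and anti-IgM differed in 1 histone gene at 44 h and in none at 68 h. Hist1h2bc had 4.45, 6.09 and 3.91 scaled TPM with LPS at 44 h, against 17.5, 15.7 and 19.2 with anti-IgM. Its difference was −1.68 ± 0.52 (adjusted p = 0.0379 by limma; 1.49% of the members and 8.63% of all tested genes were called), and the call was lost without any of the 6 libraries. At 68 h 0 of 67 were called, also with the replicate number as a block (5 at an unadjusted p below 0.05; 4.56% of all tested genes were called). By replicate number the sums there were higher with LPS in each pair, at 2395 against 1460, 2632 against 1021 and 1408 against 898.

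Another set of histone genes was highest in unstimulated OP9 cells. Of the 22 genes that averaged 5 scaled TPM or more, Hist1h1c, Hist1h2bc, Hist2h2aa1 and Hist2h2aa2 had their highest group mean in unstimulated OP9 cells. Hist1h2bc, an H2B gene, had 36.6, 23.7 and 28.7 scaled TPM in unstimulated DL1 cells, against 180, 167 and 50.7 in unstimulated OP9 cells. Hist1h1c, which encodes the H1.2 linker histone, had 5.27, 11.2 and 12.7, against 43.3, 26.2 and 19.0. The sum of the pair Hist2h2aa1 and Hist2h2aa2 was 22.5, 64.1 and 91.9, against 324, 262 and 37.2, so here the groups overlapped.

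DL1 against OP9 in unstimulated cells called 5 of 67 histone genes, all lower (7.46%, where 26.5% of all tested genes were called). They were Hist2h2aa1 (−3.72 ± 1.37, adjusted p = 0.0408 by limma), the testis form Hist1h2aa (−2.87 ± 0.43, adjusted p = 3.35e-06), Hist1h2bc (−1.94 ± 0.52, adjusted p = 0.00467), Hist1h1c (−1.51 ± 0.37, adjusted p = 0.00179) and Hist2h3c1. In this comparison 14 of 17 tested stromal markers were also lower and 7 of 10 B cell markers higher in DL1 cells. The replacement histone gene H1f0 stood at 7.72 scaled TPM in DL1 cells and 155 in OP9 cells, and H2afy2 at 0.553 and 24.0. Unlike these, 16 of 31 S phase genes and 12 of 20 mitosis genes were higher in DL1 cells. With TPM as deposited 1 histone gene was higher and 2 lower, and the call of Hist1h2aa held under all settings tried. Hist1h2bc and Hist1h1c were called with any single library left out but not with TPM as deposited, in the authors' log2 table or in a fit of these 2 groups alone, and Hist1h2bc not with a pseudocount of 0.1 either (highest adjusted p = 0.175 and 0.153). Hist2h2aa1 lost its call without replicate 1 or 2 of OP9 cells or replicate 2 or 3 of DL1 cells (adjusted p = 0.0525 to 0.244). Its sum with Hist2h2aa2 overlapped between these groups and was not tested.

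This set was lower with both stimuli in OP9 cells at 68 h. Hist1h1c had 2.17, 3.82 and 1.93 scaled TPM with LPS and 4.16, 4.03 and 5.00 with anti-IgM, against 43.3, 26.2 and 19.0 in unstimulated OP9 cells. Hist1h2bc had 15.6, 19.8 and 18.3 with LPS and 12.7, 21.0 and 17.9 with anti-IgM, against 180, 167 and 50.7. Both stimuli share the unstimulated libraries with their stromal signal, and 17 of 17 tested stromal markers were lower with either stimulus.

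LPS against no stimulus in OP9 cells called 6 histone genes higher and 4 lower (14.9%, where 30.5% of all tested genes were called). Lower were Hist2h2aa1 (−3.96 ± 1.37, adjusted p = 0.0248 by limma), Hist1h1c (−3.02 ± 0.37, adjusted p = 3.66e-08), Hist1h2aa (−2.93 ± 0.43, adjusted p = 1.42e-06) and Hist1h2bc (−2.63 ± 0.52, adjusted p = 0.000136). Higher were Hist1h2ao (2.88 ± 0.93, adjusted p = 0.0168), Hist1h2ap (2.86 ± 0.88, adjusted p = 0.0117), Hist1h2ae (2.65 ± 0.81, adjusted p = 0.0116), Hist1h2ag (2.25 ± 0.71, adjusted p = 0.0141), Hist1h4i (1.33 ± 0.46, adjusted p = 0.0268) and Hist1h3g, which is listed at 0 in unstimulated OP9 cells. Without replicate 3 of unstimulated OP9 cells, a library of high Actb, 1 gene was higher and 8 lower, and Hist1h2ae had a difference of 1.35 (adjusted p = 0.195) and Hist1h4i of 0.58 (adjusted p = 0.347). Without replicate 1 Hist1h2ao had a difference of 1.39 (adjusted p = 0.258), and Hist1h2ag lost its call without replicate 2 or 3 (adjusted p = 0.0806 and 0.0777). Hist2h2aa1 lost its call without replicate 1 or 2 of unstimulated cells or replicate 2 with LPS (adjusted p = 0.0606 to 0.161).

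Anti-IgM against no stimulus in OP9 cells called 2 higher and 5 lower (10.4%, where 23.9% of all tested genes were called). Higher were Hist1h4i (1.68 ± 0.46, adjusted p = 0.00592 by limma) and Hist1h2ag (1.99 ± 0.71, adjusted p = 0.0369), and both overlapped between the groups. Lower were Hist1h2aa, which is listed at 0 with anti-IgM, Hist1h1c (−2.42 ± 0.37, adjusted p = 2.92e-06), Hist1h2bc (−2.70 ± 0.52, adjusted p = 0.000123), Hist2h2aa1 (−3.71 ± 1.37, adjusted p = 0.0446) and Hist2h2aa2 (−3.12 ± 1.14, adjusted p = 0.0424). Without replicate 3 of unstimulated OP9 cells 1 was higher and 8 lower, and Hist1h4i had a difference of 0.94 (adjusted p = 0.102). Hist1h2ag lost its call without 5 of the 6 libraries, Hist2h2aa1 without 4 and Hist2h2aa2 without 3, whereas Hist1h1c and Hist1h2bc were called with any single library left out but not in a fit of these 2 groups alone (adjusted p = 0.0549 and 0.0764).

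On DL1 Hist1h1c was lower with LPS but was not called with anti-IgM (−0.21 ± 0.37, adjusted p = 0.799 by limma), and stromal markers took at most 0.0459% of TPM in these groups. Hist1h1c had 1.97, 2.59 and 1.77 scaled TPM with LPS, against 5.27, 11.2 and 12.7 in unstimulated DL1 cells. The difference was −1.72 ± 0.37 (adjusted p = 0.00166 by limma) and was called with any single library left out, though not in a fit of these 2 groups alone (adjusted p = 0.0853). The stromal markers took 0.00654% to 0.0161% of TPM with LPS and 0.0249% to 0.0459% in unstimulated DL1 cells, and 2 of 17 were called lower.

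**Figure D4:**
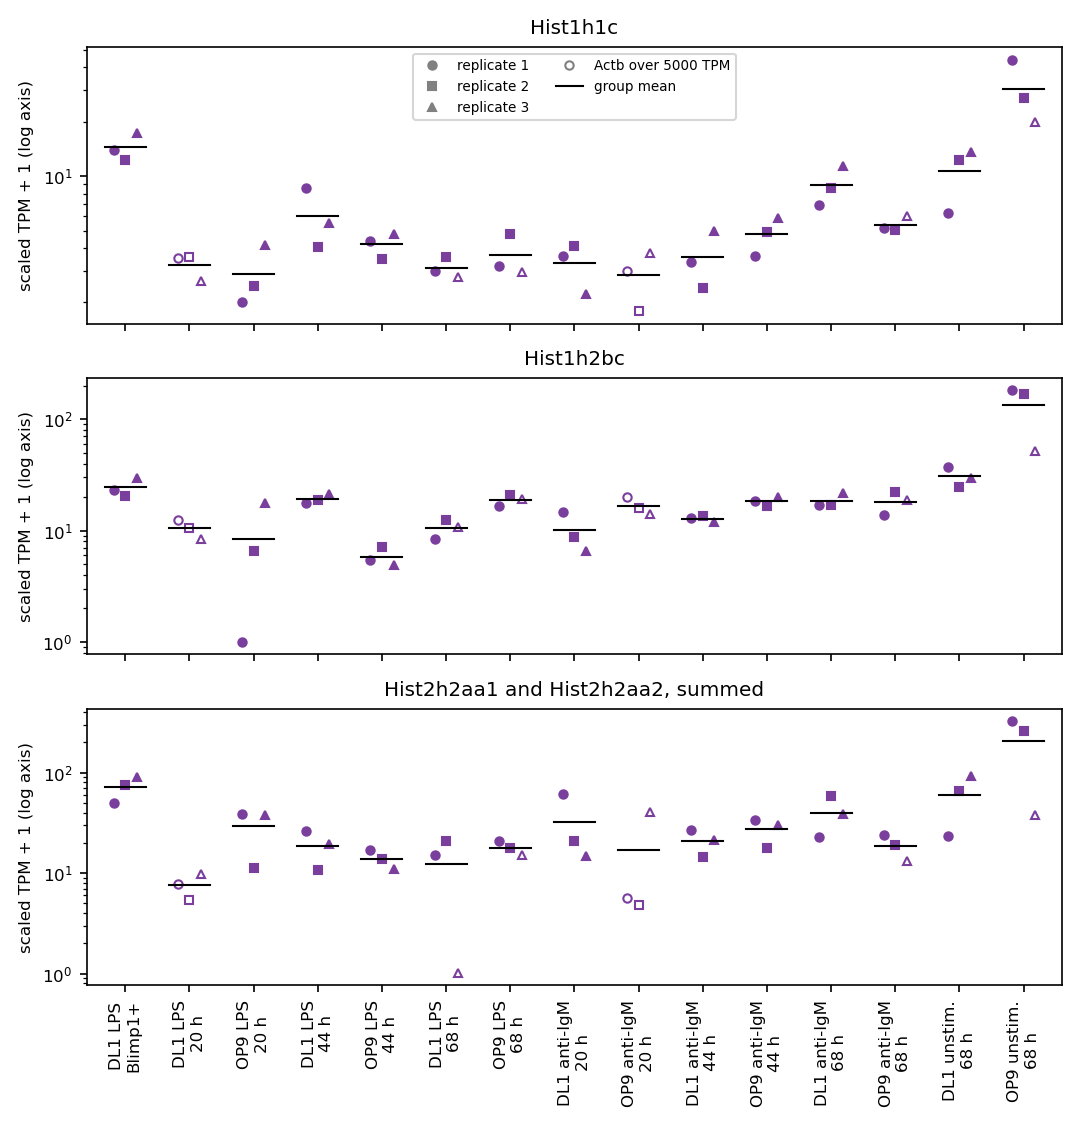
Scaled TPM + 1 per library (log axis) of Hist1h1c, Hist1h2bc and the summed pair Hist2h2aa1 and Hist2h2aa2, by group, with group means as bars and open symbols for libraries with Actb over 5000 TPM. All 3 panels are highest in unstimulated OP9 cells, and Hist1h1c is next highest in Blimp1+ cells, at 11.2 to 16.4 before 1 is added.

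Blimp1+ cells had more message of the linker histone gene Hist1h1c than the viable cells of DL1 cultures with LPS, and more of Hist1h1e than those at 68 h. Hist1h1c had 13.0, 11.2 and 16.4 scaled TPM in Blimp1+ cells, against 1.97, 2.59 and 1.77 in all viable cells at 68 h and 7.59, 3.07 and 4.51 at 44 h. Hist1h1e, the H1.4 gene, had 47.7, 38.9 and 49.1, against 19.3, 13.4 and 6.99 at 68 h and 32.6, 22.3 and 23.6 at 44 h. The groups did not overlap in any of these.

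Against 68 h, 2 of 67 histone genes were called, both higher (2.99%, where 2.84% of all tested genes were called). Hist1h1c was higher by 2.22 ± 0.37 (adjusted p = 9.5e-05 by limma) and kept its call with any single library left out. Hist1h1e was higher by 1.79 ± 0.48 (adjusted p = 0.0288), and that call was lost without 5 of the 6 libraries, most of all without replicate 3 at 68 h (adjusted p = 0.308), and in TPM as deposited, the authors' log2 table, with a pseudocount of 0.1 and in a fit of these 2 groups alone. The replacement linker gene H1f0, which is no member, was at 125 scaled TPM in Blimp1+ cells and 27.9 at 68 h (2.13 ± 0.54, adjusted p = 0.0174). Of the 5 tested H1 genes Hist1h1b (2.97 ± 0.92, adjusted p = 0.0809) and Hist1h1d (2.02 ± 0.67, adjusted p = 0.124) did not pass, nor did Hist1h1a. The median over the 67 members was 1.05, against −0.01 over all genes, and 21 had an unadjusted p below 0.05. The summed members were 3772 ± 951 scaled TPM in Blimp1+ cells and 1345 ± 563 at 68 h, with no overlap, and 903 ± 322 and 269 ± 86.2 without Hist1h2ap, while the summed S phase genes were 3058 ± 148 and 2915 ± 48.4 and overlapped, and none of those 31 genes was called. The 8 plasma cell markers summed to 7433 to 8296 in Blimp1+ cells and to 173 to 1137 in the 42 other libraries.

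Against 44 h the picture was narrower. Hist1h1c was called higher (1.32 ± 0.37, adjusted p = 0.0125 by limma), 1 of 67 genes where 12.0% of all tested genes were called, and the median was 0.04. The call was lost without replicate 2 at 44 h (adjusted p = 0.108) or replicate 3 of Blimp1+ cells (adjusted p = 0.0715), and in TPM as deposited and the authors' log2 table. The S phase sum was lower in Blimp1+ cells, at 3058 ± 148 against 5481 ± 126 scaled TPM at 44 h, and 9 of 31 of its genes were called lower, while the histone sums, 3772 ± 951 and 4497 ± 1586, overlapped. The summed H1 genes averaged 125 ± 20.9 in Blimp1+ cells and 84.4 ± 38.5 at 44 h and overlapped too.

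The ratio of histone to S phase messages varied between groups. The summed histone genes divided by the summed S phase genes at 68 h of anti-IgM gave 1.68 ± 0.394 in DL1 cells, the top group mean, and 0.406 ± 0.101 in OP9 cells. The ratio was 1.25 ± 0.379 in Blimp1+ cells and 0.461 ± 0.192 in DL1 cells with LPS at 68 h. At 44 h it lay between 0.682 and 0.843 in the 4 stimulated groups, and at 20 h between 0.204 and 0.522. In unstimulated cells it was 0.526 ± 0.171 on DL1 and 1.26 ± 0.640 on OP9, where the S phase sum was lowest. Without Hist1h2ap the order changed: unstimulated OP9 cells had the top mean, 0.842 ± 0.416, and DL1 cells with anti-IgM at 68 h came next at 0.369 ± 0.122, then Blimp1+ cells at 0.299 ± 0.122. OP9 cells with anti-IgM at 68 h had 0.0985 ± 0.0182 and DL1 cells with LPS at 68 h 0.0922 ± 0.0291. These are sums over members and carry no test.

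**Figure D5:**
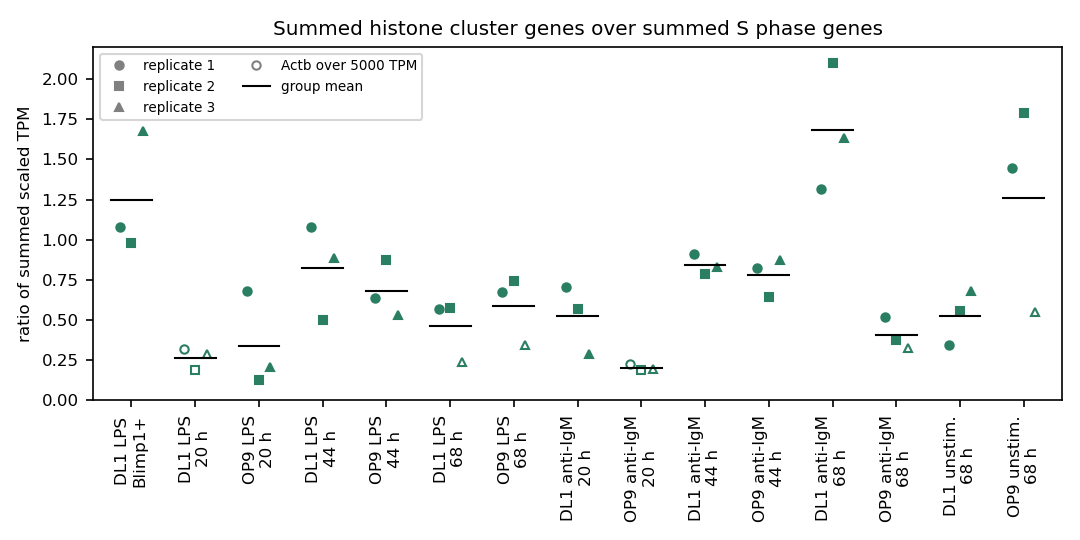
Summed scaled TPM of the 69 histone genes divided by that of 31 S phase genes, per library and group, with group means as bars and open symbols for libraries with Actb over 5000 TPM. DL1 cells with anti-IgM at 68 h have a mean of 1.68, and the 4 stimulated groups at 44 h lie between 0.682 and 0.843.

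Slbp had its highest group mean at 44 h in all 4 stimulated courses, also where the histone genes did not. In DL1 cells with LPS its libraries at 20 h, all of high Actb, overlapped with those at 44 h. They had 408, 282 and 333 scaled TPM, against 404, 336 and 413. At 20, 44 and 68 h Slbp averaged 300, 430 and 321 scaled TPM in DL1 cells with anti-IgM, 220, 374 and 244 in OP9 cells with anti-IgM, 341, 384 and 221 in DL1 cells with LPS and 270, 486 and 233 in OP9 cells with LPS. Unstimulated cells had 158 ± 38.5 on DL1 and 150 ± 46.0 on OP9 (SD, n = 3). Of 25 comparisons Slbp was called higher in 3 and lower in 2 by limma. It was higher with anti-IgM than without stimulus in DL1 cells (1.05 ± 0.24, adjusted p = 0.00334) and in OP9 cells (0.71 ± 0.24, adjusted p = 0.0273), and higher with LPS than without stimulus in OP9 cells (0.68 ± 0.24, adjusted p = 0.0312). It was lower at 68 than at 44 h of LPS in DL1 cells (−0.80 ± 0.24, adjusted p = 0.0371) and in OP9 cells (−1.06 ± 0.24, adjusted p = 0.0042). Between stromas it was called nowhere, with a difference of 0.43 ± 0.24 under anti-IgM at 68 h (adjusted p = 0.343). Npat, at 4.13 to 22.9 scaled TPM, was called in none of the 25 comparisons (2 at an unadjusted p below 0.05).

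Genes of histone chaperones and replacement histones were also called in DL1 cells. In DL1 cells at 68 h, 4 of 18 histone chaperone genes were higher with anti-IgM than without stimulus. Among them was Asf1b (1.86 ± 0.37, adjusted p = 0.000641 by limma), which encodes a chaperone of H3 and H4. LPS raised 3 of the 18, again with Asf1b (1.18 ± 0.37, adjusted p = 0.0385). Of all tested genes 9.52% were called in either direction with anti-IgM there and 8.1% with LPS. Replacement histone genes, whose products enter chromatin outside S phase as well, include H2afz. H2afz was at 1804 ± 208 scaled TPM with anti-IgM and 1227 ± 98.2 with LPS, against 520 ± 91.4 in unstimulated DL1 cells, and both differences were called (1.80 ± 0.18 and 1.25 ± 0.18). It was also higher in DL1 than in OP9 cells with anti-IgM at 68 h (0.66 ± 0.18, adjusted p = 0.0466). Of 15 genes of histone message transcription and processing, Slbp alone was called with anti-IgM in DL1 cells, and none with LPS.

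The sequence classes were set beside the differences as a description. With anti-IgM against no stimulus in DL1 cells, 6 of 21 genes of the class that ends near the stem-loop were called higher, with a median of 1.33. Of the class that runs further or carries the polyadenylation letters, 5 of 27 tested were called higher, with a median of 0.35. Of those with neither feature 4 of 19 were, with a median of 1.13. Of all tested genes 9.52% were called in either direction there, with a median of −0.07. In the contrast of DL1 with OP9 under anti-IgM at 68 h the medians were 1.52, 0.65 and 1.45 in the same order, against −0.12 over all tested genes. The members that were high in unstimulated cells fell in all classes, with Hist1h1c among the longer messages, Hist2h2aa1 near the stem-loop and Hist1h2bc without one. The difference between classes was not tested, and which ends the libraries read is not part of these tables.

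By pattern over the 15 group means, the genes most like the summed histone genes were 4930427A07Rik (Pearson r = 0.93), Rnf26 (0.92), Troap (0.91), Rnaseh2a (0.91) and Nmral1 (0.91), out of 9060 compared on the log2 scale. The same measure was 0.76 for Slbp and 0.39 for Npat. Without Hist1h2ap in the sum the 5 genes had 0.70, 0.79, 0.63, 0.74 and 0.77. The points share libraries and size factors, so these values describe likeness only.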

How the data were processed

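The values used were deposited TPM per gene, made by the authors. Kallisto and limma are listed in the submitters' processing notes, as are the builds mm10 and GRCm38, and versions are not given in the sources used here. A second deposited table holds depth-scaled counts on a log2 scale and was an alternative. TPM were divided by median-ratio size factors over 9462 genes above 0 in all libraries. Genes with at least 1 TPM in 3 libraries (15614 of 30317) were tested on log2(scaled TPM + 1) with limma 3.58.1 (R 4.3.3, trend and robust options) in 1 model of 15 group means and 25 contrasts, called at a Benjamini-Hochberg adjusted p below 0.05. A pseudocount of 1 understates changes of low genes. Estimated reads were read from the floor of the log2 table and limit precision for low genes, and the scripts were tested on simulated data. The members and gene lists were chosen with earlier results of these data known. Named are the 3 most abundant members of each family and, per contrast, up to 5 called members in each direction by size with a group mean of at least 5 scaled TPM. Called members outside this rule (Hist1h2al, Hist2h3c1, Hist1h3g, Hist1h4j and those past the fifth) were named after their values were seen. Stem-loops came from GENCODE transcripts and promoters from RefSeq. Replicate numbers were checked for pairing: same-numbered libraries correlated over 0.1 in 34 of 105 pairs, and in every pair in 4 of 25 contrasts, each of which holds replicate 3 libraries of high Actb. Alternatives were TPM as deposited, the log2 table, a pseudocount of 0.1, no filter, a replicate block, a fit of only the groups compared, a fit without libraries over 5000 TPM of Actb, and leaving out each library.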

Additional observations from a re-analysis of the deposited data

How the results depend on the processing

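Of 173 counts of called histone genes under other settings, 114 lay within 1.5 times the reported count, and no named difference reversed. Comparisons are given as above, each with its count of called genes and without the share of all tested genes called. A shift in these counts therefore cannot be told from a shift in calls over all genes. With TPM as deposited, DL1 against OP9 called 3 genes unstimulated and 0 with LPS at 20 h; LPS against no stimulus on DL1 3; 44 against 20 h of LPS on OP9 1; 68 against 44 h of LPS 1 on OP9 and 1 on DL1; Blimp1+ cells 0 against 44 h and 1 against 68 h. With the authors' log2 table the same comparisons of DL1 with OP9 gave 2 and 1, LPS against anti-IgM 0 on OP9 at 44 h and 4 on DL1 at 68 h, 68 against 44 h of LPS 1 and 1, and Blimp1+ cells 0 and 1. With a pseudocount of 0.1, DL1 against OP9 gave 3 unstimulated, 1 with LPS at 20 h and 0 with anti-IgM at 68 h, LPS against anti-IgM 0 on OP9 at 44 h and 3 on DL1 at 68 h, 68 against 44 h of LPS on OP9 0, and Blimp1+ cells against 68 h 1. With no filter, DL1 against OP9 gave 0 with LPS at 20 h and 1 with anti-IgM at 68 h, LPS against anti-IgM on OP9 at 44 h 0, 44 against 20 h of LPS on OP9 1, and 68 against 44 h of LPS 1 on either stroma. Fits of only the groups compared, with few residual degrees of freedom, gave for DL1 against OP9 2 unstimulated, 0 and 1 with LPS at 20 and 44 h, and 2, 10 and 0 with anti-IgM at 20, 44 and 68 h. They gave 6 and 1 for LPS and anti-IgM against no stimulus on OP9, 0 for LPS on DL1, 7, 10 and 2 for LPS against anti-IgM on OP9 at 44 h and on DL1 at 44 and 68 h, 0 and 2 for 44 against 20 h, 0 and 4 for 68 against 44 h of LPS and anti-IgM on DL1, 6 and 1 for Blimp1+ cells against 44 and 68 h, and 3 and 1 for the difference of stroma effects at 44 and 68 h. Without libraries of high Actb, 9 genes were called between stromas unstimulated, 4 and 23 for LPS and anti-IgM against no stimulus on DL1, 2 and 4 for LPS against anti-IgM on DL1 at 44 and 68 h, 8 for 44 against 20 h of LPS on OP9, 2 for 68 against 44 h of anti-IgM on DL1, and 3 and 1 for Blimp1+ cells; the stroma contrasts at 20 h had no libraries left in a group. With the replicate block LPS against no stimulus on DL1 gave 2 genes, and Hist1h2bk lost its call between 44 and 20 h of LPS (adjusted p = 0.056 by limma). The 4 contrasts with pairs correlated throughout gave 7, 10, 0 and 0 with the block. The cause of these shifts was not tested. Leaving out each library in turn gave, between stromas, 3 to 6 unstimulated, 0 to 4 with LPS and 1 to 9 with anti-IgM at 20 h, and 0 to 6 with anti-IgM at 68 h. Against no stimulus it gave 7 to 11 and 5 to 9 for LPS and anti-IgM on OP9, and 1 to 3 and 9 to 13 on DL1. LPS against anti-IgM gave 0 to 0 on OP9 at 44 h and 1 to 7 on DL1 at 68 h, 44 against 20 h of LPS 1 to 4, 68 against 44 h of LPS 0 to 2 on OP9 and 0 to 4 on DL1, and Blimp1+ cells 0 to 2 and 1 to 5. Of 306 such refits of named genes 111 lost the call. Between 8 and 43 of the 69 members were at 0 in a library, which leaves their fold changes dependent on the pseudocount.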
